A study of Mus musculus with 2 samples.

Results

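Plasmacytoid dendritic cells (pDCs) made up 59 of the 48143 cells kept from 2 scRNA-Seq libraries of denervated mouse hind limb muscle, a share of 0.123%. They were chosen by a rule on the measured values themselves. A kept cell had more than 200 detected genes and less than 10% mitochondrial unique molecular identifiers (UMIs, each standing for 1 captured RNA molecule). A pDC was a kept cell with a UMI of *Siglech*, a UMI of at least 2 of the 6 supporting genes *Ccr9*, *Cox6a2*, *Klk1*, *Pacsin1*, *Ly6d* and *Tcf4*, and no UMI of *C1qa*, *Xcr1* or *Cd209a*, which mark macrophages, type 1 conventional dendritic cells (cDC1) and type 2 conventional dendritic cells (cDC2). Because these 10 genes picked the cells, their levels are given below as a description.

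With these libraries the study asked how secreted phosphoprotein 1 (SPP1) shapes what terminal Schwann cells of the muscle do after nerve injury, by neutralizing it. Male C57BL/6J mice, by the strain label, carrying the *S100GFP* Schwann cell reporter and aged 10 to 16 weeks received a bilateral peroneal nerve injury. The SPP1-nAb group was injected with 2 μg of SPP1 neutralizing antibody at injury and every 2 days. The IgG group received goat anti-mouse IgG, the control antibody, in the same way, and muscles of both were digested at 7 dpi. The labels name tibialis anterior and gastrocnemius muscles, and the study's text names tibialis anterior alone for these libraries. The extraction notes say that live GFP+ and GFP- cells were sorted, the sample titles name GFP-positive cells only, and the proportion loaded is not given, so a share of cells here is a share of what was sorted and captured, not of the muscle. Each group was 1 library of pooled mice whose number is not given, and both groups carried the reporter and the injury. With 1 library per group there was no replicate and no test between groups, and every interval below covers counting error only. The IgG library held 23779 barcodes and 97607674 UMIs, of which 23385 barcodes were kept with a median of 3822 UMIs. The SPP1-nAb library held 25069 barcodes and 127719916 UMIs, of which 24758 were kept with a median of 4756 UMIs. The 2 libraries shared 163 barcode sequences, none of them a pDC.

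pDCs are rare, round dendritic cells that arise in bone marrow, circulate in blood and enter tissues through vessels. They sense viral and self nucleic acids in endosomes through Toll-like receptors 7 and 9 and can answer with large amounts of type I interferon. The E protein TCF4 directs their fate against that of conventional dendritic cells, and they share with B lymphocytes a set of early lymphoid genes and a large secretory apparatus.

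E proteins such as TCF4 bind the E-box, CANNTG, where N is any base. The 250 bases upstream of the start of 3 rule genes and of *Mctp2*, the gene with the most UMIs in pDCs among the 20 leading genes described below, are shown with every E-box in capitals, so that the letters an E protein can bind are seen beside the levels. They are given 5′ to 3′ on the strand of the gene, from RefSeq (GRCm38.p6).
*Siglech*, chr7:55767934-55768183, plus strand: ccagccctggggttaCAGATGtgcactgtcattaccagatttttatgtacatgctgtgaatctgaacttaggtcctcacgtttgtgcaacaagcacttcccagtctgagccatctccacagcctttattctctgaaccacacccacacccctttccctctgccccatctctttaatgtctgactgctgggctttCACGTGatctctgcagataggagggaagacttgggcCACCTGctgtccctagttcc
*Ccr9*, chr9:123766961-123767210, plus strand: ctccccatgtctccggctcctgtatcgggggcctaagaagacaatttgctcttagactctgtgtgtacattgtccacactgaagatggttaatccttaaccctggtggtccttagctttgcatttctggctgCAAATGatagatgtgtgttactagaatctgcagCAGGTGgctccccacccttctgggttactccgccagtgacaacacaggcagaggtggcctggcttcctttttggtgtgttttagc
*Klk1*, chr7:44225110-44225359, plus strand: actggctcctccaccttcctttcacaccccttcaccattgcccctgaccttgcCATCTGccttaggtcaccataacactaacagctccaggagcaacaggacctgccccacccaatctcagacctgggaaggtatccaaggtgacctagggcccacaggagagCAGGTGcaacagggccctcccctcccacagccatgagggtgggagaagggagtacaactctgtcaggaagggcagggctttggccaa
*Mctp2*, chr7:72306596-72306845, minus strand: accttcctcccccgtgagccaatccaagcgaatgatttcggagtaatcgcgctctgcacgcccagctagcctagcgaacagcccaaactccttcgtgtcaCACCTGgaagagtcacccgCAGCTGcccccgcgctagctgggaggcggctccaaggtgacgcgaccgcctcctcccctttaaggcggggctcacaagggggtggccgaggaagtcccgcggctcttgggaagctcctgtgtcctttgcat
The *Siglech* stretch held 3 E-boxes and each of the others 2. Over the longer windows of 250 bases before to 50 after the start, both strands searched, 3 of the 4 windows of required or supporting rule genes and 12 of the 14 windows of 12 leading genes, 3 of them of *Lrp8*, held an E-box, against 72.3% of all 32851 windows. The windows of the excluding genes *Xcr1* and *Cd209a* each held an E-box as well, and that of *Pacsin1* held none, so it is not shown. The preferred E protein cores CAGCTG or CAGGTG, which are E-boxes too, lay in 3 of 4 and 8 of 14 windows, against 32.9% of all. GAGGAA, a core of Ets factors such as SPIB, lay in 1 of 4 and 6 of 14, against 28.3%, and the interferon-stimulated response element in 0 of 4 and 2 of 14, against 3.44%. A match is a run of letters, and occupancy was not measured.

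The IgG library gave 20 pDCs with 75263 UMIs in all and the SPP1-nAb library 39 with 161059. *Siglech*, a sialic acid-binding receptor of the pDC surface, had 116 UMIs in the 20 IgG pDCs and 235 in the 39 SPP1-nAb pDCs, a median of 5.5 and 6 per cell and a maximum of 12 and 18. As counts per 1000000 UMIs of the pooled cells (CPM), this was 1541 (exact Poisson 95% interval 1274 to 1849) and 1459 (1278 to 1658), against 6.41 and 2.28 in all other kept cells. The levels of the 2 libraries lay within each other's interval. *Ccr9*, the receptor of the gut and thymus chemokine CCL25, had 64 and 127 UMIs in 18 and 33 cells. *Tcf4* was found in all 59 cells, with 232 and 452 UMIs, and was the rule gene least particular to them, since the other cells still held 571 and 420 CPM against 3083 and 2806 in pDCs. *Ly6d*, a glycolipid-anchored surface protein also found on early lymphoid cells, had 78 and 115 UMIs.

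*Klk1*, tissue kallikrein, and *Pacsin1*, a membrane-bending adaptor of endocytosis, were sparser. *Klk1* had 24 UMIs in 12 IgG cells and 94 in 19 SPP1-nAb cells, and these few cells held 77.4% and 74.6% of all *Klk1* UMIs of their libraries. *Pacsin1* had 17 and 53 UMIs in 7 and 26 cells. Of the IgG pDCs, 2, 4, 2, 9 and 3 carried 2, 3, 4, 5 and 6 of the supporting genes, and of the SPP1-nAb pDCs 8, 2, 10, 10 and 9 did.

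**Figure D1:**
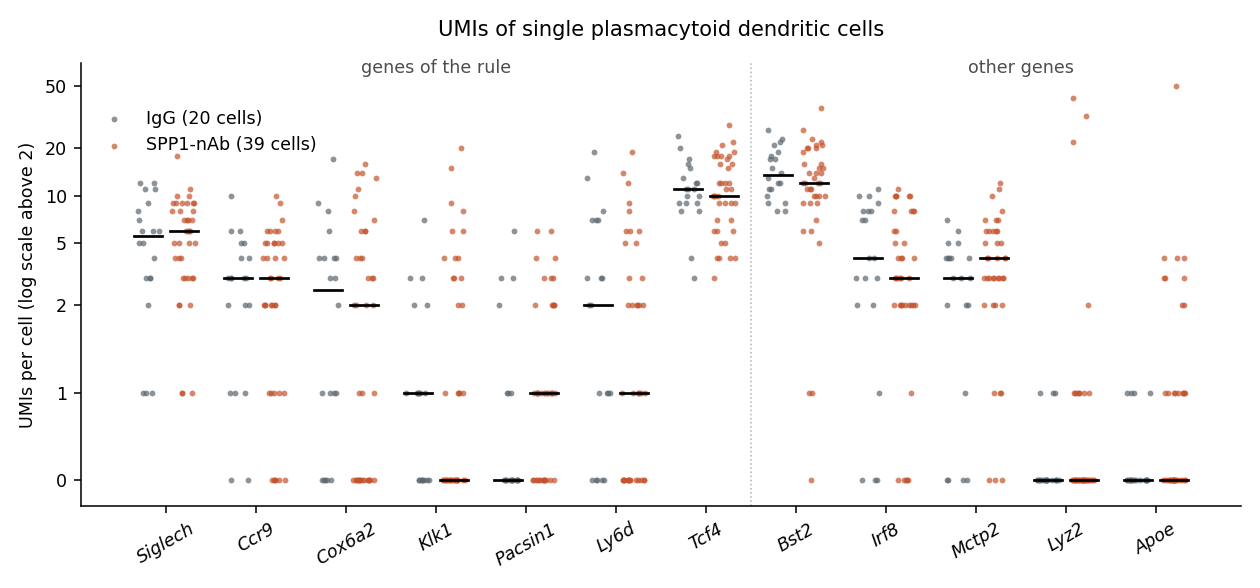
UMIs in each of the 20 IgG and 39 SPP1-nAb pDCs for 7 genes of the rule, left of the dotted line, and 5 other genes (y axis: UMIs per cell, log scale above 2; 1 point per cell; bars: medians). *Siglech*, *Tcf4* and *Bst2* were at several UMIs in most cells of both libraries. *Lyz2* and *Apoe* were at 0 or 1 in most cells, with *Lyz2* high in 3 SPP1-nAb cells and *Apoe* in 1.

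*Cox6a2* encodes a subunit of cytochrome c oxidase whose best known sites are heart and skeletal muscle. It had 68 UMIs in 15 IgG pDCs and 143 in 24 SPP1-nAb pDCs, 903 and 888 CPM, against 13.1 and 9.06 CPM in the other cells. The pDCs held 15.7% of the *Siglech* UMIs of the IgG library but only 5.09% of its *Cox6a2* UMIs, and 44.8% and 11.0% in the SPP1-nAb library. Most of the rest lay in cells with a UMI of the muscle genes *Myog* or *Des*, which held 67.9% and 62.3% of all *Cox6a2* UMIs. *Cox7a1* and *Cox8b*, the other muscle forms of the same enzyme, were at 0 UMIs in all 59 pDCs, which allows up to 39.9 CPM in the IgG and 18.6 CPM in the SPP1-nAb pDCs by a limit of 3 counts. *Cox6a1*, the form of most tissues, stood at 266 and 279 CPM in pDCs and 251 and 280 CPM in the other cells. *Acta1*, skeletal muscle actin, had 0 and 2 UMIs in the pDCs.

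The cells just inside and just outside the rule were few. The 2 IgG and 8 SPP1-nAb pDCs with only 2 supporting genes held 2 and 19 UMIs of *Siglech*, 0 and 18 of *Mctp2* and 0 and 4 of *Lyz2*, the lysozyme of myeloid cells. The 12 IgG and 6 SPP1-nAb cells with *Siglech*, 1 supporting gene and no excluding gene held 14 and 6 UMIs of *Siglech*, 0 and 0 of *Mctp2* and 90 and 68 of *Lyz2*. Of these *Lyz2* UMIs 54 and 39 lay in 1 cell of each library, and 6 of the 12 IgG cells had none. The excluding genes removed 26 IgG and 25 SPP1-nAb cells that otherwise met the rule. Those cells held 48 and 50 UMIs of *Mctp2* but also 530 and 238 of *Apoe*, a lipid carrier abundant in macrophages. *Apoe* was found in 15 of the 26 and 10 of the 25 cells, and 125 of the 238 UMIs lay in 1 cell. *Bst2* was found in 22 of the 26 and 24 of the 25, and *Irf8* in 16 and 21. Of these cells, 6 IgG and 12 SPP1-nAb carried 4 or more supporting genes. Most *Siglech* cells of these muscles were of another kind. Of the 461 and 230 kept cells with a *Siglech* UMI, 389 and 151 had *C1qa* and fewer than 2 supporting genes, and these held 539 and 178 UMIs of *Gpr34* and 299 and 182 of *Fcrls*, genes best known from microglia and some tissue macrophages. Both genes were at 0 in the pDCs, from which the rule had left out cells with *C1qa*, so this absence is not independent of the rule.

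The name given by the rule was checked against genes it did not use. The rule had already left out cells with *C1qa*, *Xcr1* or *Cd209a*, so the macrophage, cDC1 and cDC2 sums are not independent of it. Of 8 B cell markers 2 were detected, at 0 and 3 UMIs in all, and of 10 T or NK cell markers only *Cd28*, at 4 and 2 UMIs. The plasma cell markers *Jchain* and *Sdc1* were at 0, as were all 6 basophil and mast cell markers. The 10 macrophage markers summed to 21 UMIs, 279 CPM, in the IgG pDCs, where *Adgre1*, *Csf1r*, *Trem2* and *Mertk* were at 0 and *Cd68* led with 12. In the SPP1-nAb pDCs they summed to 153 UMIs, 950 CPM, led by *Apoe* with 84, and the other cells stood at 9361 and 10505 CPM. The 8 neutrophil markers had 0 and 74 UMIs, of which 68 lay in a single SPP1-nAb cell. Some lists summed to more than in the other cells. The 8 monocyte markers reached 5567 and 4893 CPM against 2715 and 2480 CPM, led by *Plac8* with 209 and 423 UMIs, a gene that pDCs are also known to express, while 2 of the 8 were higher and 3 lower in both libraries and their median log2 ratios were -1.26 and -0.65. The 8 cDC1 markers reached 1528 and 1198 CPM against 235 and 210 CPM, led by *Irf8* with 100 and 168 UMIs, while *Itgae*, *Gcsam*, *Tlr3* and *Snx22* were at 0 in both libraries. The 8 cDC2 markers reached 1847 and 1745 CPM against 701 and 695 CPM, led by *Klrd1* with 51 and 92 UMIs, and 18 of 20 and 34 of 39 pDCs had at least 2 of them. The 8 endothelial markers reached 306 and 261 CPM against 102 and 87.0 CPM, led by *Pecam1* with 10 and 25 UMIs, with *Cldn5*, *Vwf* and *Egfl7* at 0. The part of such cells in the results was not tested.

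Some of the macrophage UMIs sat in few cells. By the doublet scores, 3 of the 39 SPP1-nAb pDCs and none of the 20 IgG pDCs fell among the 10% of cells with the highest scores. These 3 cells had 9537, 7915 and 7241 UMIs and together held 96 of the 105 *Lyz2* UMIs and 57 of the 84 *Apoe* UMIs of the SPP1-nAb pDCs. Without them, the macrophage markers stood at 57 UMIs, 418 CPM. The neutrophil markers stood at 70 UMIs without them, so the cell with 68 of these UMIs was not one of the 3.

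Levels outside the rule were compared with all other kept cells for genes with at least 20 UMIs observed in the pDCs or at least 20 that the level of the other cells would give. A gene was called higher or lower where it differed by 2-fold or more in both libraries. Of 2850 genes, 402, or 14.1%, were higher and 471, or 16.5%, lower, and the median log2 ratio of pDCs to other cells was 0.19 in the IgG and 0.18 in the SPP1-nAb library. The list of pDC surface and effector genes was chosen with earlier results of these cells known, and 7 of its genes are among the 20 leading genes below, so its count is a description. Of its 29 measured genes 28 were detected, 25 could be compared, 22 were higher and 0 lower, with median log2 ratios of 4.12 and 4.30.

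*Bst2*, the tetherin that is also the antigen of pDC-depleting antibodies, had 295 UMIs in 20 of 20 IgG cells and 519 in 38 of 39 SPP1-nAb cells. This was 3920 CPM (3485 to 4393) and 3222 CPM (2951 to 3512), 10.1 and 9.43 times the other cells. *Ly6c2*, a surface protein shared with inflammatory monocytes, stood at 2152 and 1416 CPM, and *Lair1*, an inhibitory collagen receptor, at 611 and 466 CPM. *Klra17*, the inhibitory receptor Ly49Q for MHC class I, had 43 and 42 UMIs, 571 CPM (413 to 770) and 261 CPM (188 to 352), against 4.04 and 3.39 CPM elsewhere. *Rnase6*, a secreted ribonuclease, stood at 864 and 534 CPM. *Gzmb* was at 0 UMIs in both libraries and *Cd8a* at 4 and 5.

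The 20 genes with the highest ratio to the other cells, among genes found in at least 25% of pDCs, were led by *Mzb1*, an endoplasmic reticulum cochaperone of antibody-secreting cells. *Mzb1* had 20 and 21 UMIs in 8 and 13 pDCs and stood at 0.0928 and 0.11 CPM in the other cells. It was followed by *Gm21762*, with 56 and 80 UMIs, and *Dntt*, the terminal transferase of lymphoid precursors, with 18 and 19. *Mctp2*, a C2 domain membrane protein, had 59 and 165 UMIs in 16 and 36 pDCs, 784 CPM (597 to 1011) and 1024 CPM (874 to 1193). After each cell was thinned to 2000 UMIs, *Mctp2* was found in 65.0% of the 20 IgG and 89.2% of 37 SPP1-nAb pDCs and in none of 205 and 191 cDC1. Median UMIs before thinning were 3754 and 4017 in pDCs and 6218 and 7335.5 in cDC1, so the deeper cells were those without it. The other leading genes were *Cd8b1*, *Cacna1e*, *Tmem163*, *Cd300c*, *Spib*, *Paqr5*, *Spns3*, *Sla2*, *Ptprcap*, *Fcrla*, *Klra17*, *Lrp8*, *Cd7*, *Sh3bgr*, *Sept1* and *Upb1*. Of these, *Cd8b1* encodes the beta chain of CD8 and *Cacna1e* the pore of a voltage-gated calcium channel.

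Transcription factors known from the pDC lineage were mostly high. Of 17 compared, 10 were higher and 1 lower, with medians of 1.35 and 1.81. *Irf8*, which pDCs share with cDC1, stood at 1329 CPM (1081 to 1616) and 1043 CPM (891 to 1213), and gated cDC1 at 922 and 618 CPM. *Runx2*, a Runt family factor, stood at 678 and 590 CPM, and *Bcl11a*, a zinc finger factor that pDC development needs, at 505 and 553 CPM, 40.1 and 42.2 times the other cells. *Spib*, an Ets factor of pDCs and B cells, had only 6 and 19 UMIs but stood 198 and 333 times above the other cells. *Tcf12*, an E protein like TCF4, and *Mef2c* were 3.83 and 4.52 times and 2.55 and 3.5 times above them. The only lower factor was *Spi1*, PU.1 of myeloid cells. *Zeb2* stood at 664 and 863 CPM, 0.451 and 0.546 times the other cells.

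Of 6 factors of conventional dendritic cells compared, 0 were higher and 3 lower, with medians of -1.77 and -1.32. *Rel*, at 0.79 and 0.514 times the other cells, was not called. *Id2*, the inhibitor of E proteins that cDC1 need, had 1 and 3 UMIs, 13.3 CPM (0.336 to 74.0) and 18.6 CPM (3.84 to 54.4), against 1170 and 1041 CPM in cDC1. *Nfil3* and *Klf4* were the other lower factors. *Batf3* had 1 UMI in all and *Zbtb46* 3. Genes known from transitional dendritic cells, which lie between pDCs and cDC2, were mostly low against all other kept cells. Of 10 compared, 8 were lower and 0 higher, beside 16.5% lower and 14.1% higher over all genes. *Axl* was at 0, and *Cx3cr1* had 1 UMI. Gated macrophages made up 21979 of the 48143 kept cells, so this count does not show how pDCs stand against cDC2. *Plaur* stood at 3.97 and 1.96 times the other cells. The rule had left out every cell with the cDC2 gene *Cd209a*. Of these, 18 IgG and 19 SPP1-nAb cells had *Siglech* and at least 2 supporting genes, so this count is partly set by the rule.

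**Figure D2:**
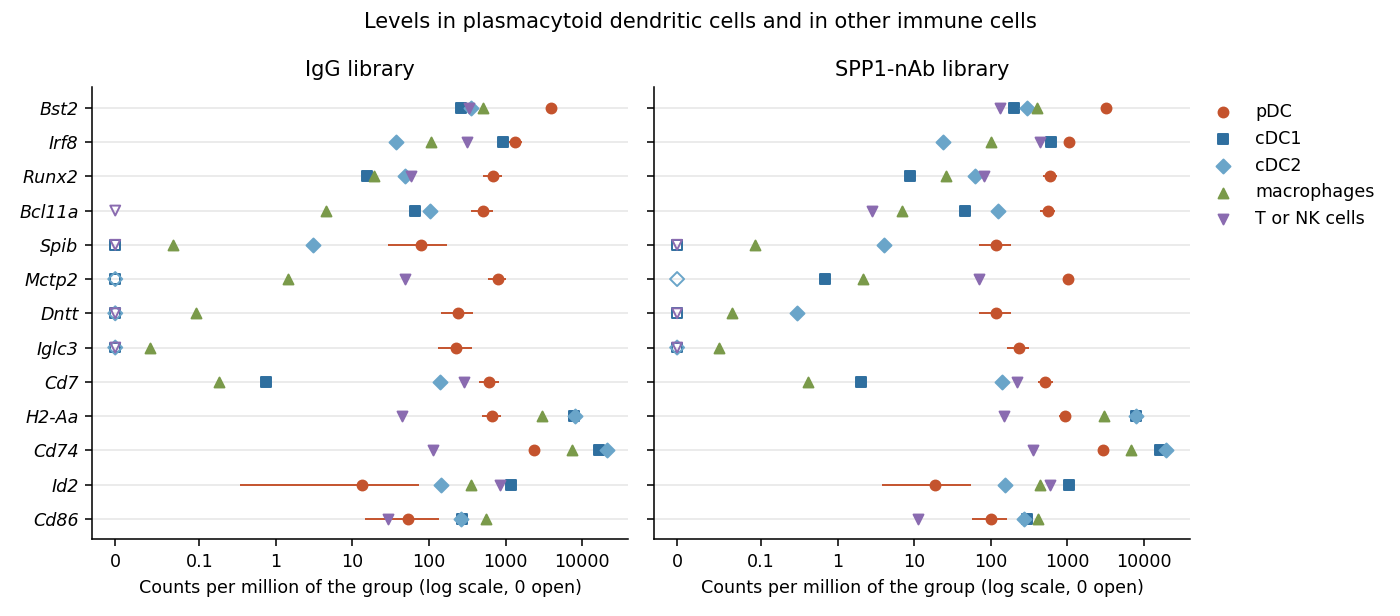
Levels of 13 genes in pDCs and in gated cDC1, cDC2, macrophages and T or NK cells of each library (x axis: counts per 1000000 UMIs of the group, log scale, open symbols at 0; bars: exact Poisson 95% intervals of pDCs). The pDCs were highest of the groups for *Bst2* to *Cd7* and below cDC1, cDC2 and macrophages for *H2-Aa* and *Cd74*.

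Genes of endosomal nucleic acid sensing were near the background as a list. Of 12 compared, 2 were higher and 3 lower, with medians of 0.13 and 0.24. *Tlr7*, the receptor of single-stranded RNA, had 10 and 12 UMIs, 133 CPM (63.7 to 244) and 74.5 CPM (38.5 to 130). Macrophages, which also use TLR7, stood at 98.9 and 71.2 CPM, within those intervals. *Tlr9*, the receptor of CpG DNA, had 2 and 1 UMIs, too few for a level. The higher genes were *Pld4*, an endosomal exonuclease that trims single-stranded nucleic acids, at 345 and 484 CPM, and *Cd2ap*, an adaptor protein, at 478 and 341 CPM. *Unc93b1*, the chaperone of endosomal Toll-like receptors, stood at 399 and 385 CPM, 1.47 and 1.3 times the other cells. The proteases *Ctsb* and *Lgmn* and the exonuclease *Pld3* were lower.

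No interferon transcript was found in the pDCs. All 21 interferon genes measured, that is *Ifna1*, *Ifna2*, *Ifna4*, *Ifna5*, *Ifna6*, *Ifna7*, *Ifna9*, *Ifna11*, *Ifna12*, *Ifna13*, *Ifna14*, *Ifna15*, *Ifna16*, *Ifnab*, *Ifnb1*, *Ifne*, *Ifnk*, *Ifnz*, *Ifnl2*, *Ifnl3* and *Ifng*, were at 0 UMIs in all 59 cells. With so few cells this allows up to 39.9 CPM in the IgG and 18.6 CPM in the SPP1-nAb pDCs, so a low level was not detectable. The machinery that responds to interferon was present. Of 8 receptor and signaling genes compared, 3 were higher, namely *Ifnar1* and *Ifnar2*, the chains of the type I interferon receptor, at 292 and 323 CPM and 545 and 559 CPM, and *Stat2*, their signal transducer, at 239 and 248 CPM. The only lower one was *Ifngr1*, the ligand-binding chain of the interferon gamma receptor. *Irf7*, the factor that amplifies type I interferon, stood at 146 and 99.3 CPM, 1.07 and 1.06 times the other cells.

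Interferon response genes were uneven between cells. Of 10 compared, 3 were higher, *Bst2*, *Trim30a* and *Ifi47*, and 0 lower, with medians of -0.25 and -0.00. Summed without *Bst2*, the 27 other genes of the list had 226 UMIs in IgG pDCs, 3003 CPM, against 3485 CPM in the other cells. In SPP1-nAb pDCs they had 382 UMIs, 2372 CPM, against 2637 CPM. The 4 highest of the 20 IgG cells, with 37, 30, 22 and 19 UMIs, held 47.8% of the sum, and the 4 highest of the 39 SPP1-nAb cells, with 91, 47, 40 and 37, held 56.3%. The SPP1-nAb cells with 91 and 37 UMIs were among the 3 with high doublet scores. Per cell the median was 9 and 3 UMIs. *Isg15*, a ubiquitin-like interferon response protein, was found in 8 and 7 cells at up to 12 and 22 UMIs.

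Most cytokine genes with enough UMIs were low. Of 6 inflammatory cytokines compared, 4 were lower, *Il1b*, *Tnf*, *Cxcl16* and *Ccl3*, and 0 higher, with medians of -1.67 and -2.21. The 39 *Il1b* UMIs of the SPP1-nAb pDCs included 26 in 1 of the 3 cells with high doublet scores. *Tgfb1*, the cytokine TGF-β1, stood at 239 and 354 CPM, 1.29 and 1.57 times the other cells. *Ccl4*, an inflammatory chemokine, stood at 757 and 677 CPM, 0.59 and 0.582 times the other cells. *Il12a*, the p35 chain of interleukin 12, had 13 and 6 UMIs, 173 CPM (92.0 to 295) and 37.3 CPM (13.7 to 81.1), against 1.26 and 0.464 CPM elsewhere, while *Il12b*, its partner chain, was at 0.

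The pDCs carried RNA for homing and adhesion molecules. Of 11 compared, 4 were higher and 2 lower, with medians of 0.11 and -0.08. *Selplg*, the selectin ligand PSGL-1, stood at 319 and 459 CPM, *P2ry14*, a receptor of UDP-sugars, at 319 and 335 CPM, and *Itga4*, the alpha 4 integrin, at 332 and 255 CPM. *Ccr1* and *Cxcr4* were lower. *Ccr2* stood at 545 and 435 CPM, 1.08 and 0.943 times the other cells.

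Antigen presentation genes were mostly low. Of 9 MHC class II and costimulation genes compared with all other cells, 6 were lower and 0 higher, with medians of -1.36 and -1.56. *H2-Aa*, a class II alpha chain, had 50 and 149 UMIs, 664 CPM (493 to 876) and 925 CPM (783 to 1086), against 7785 and 7831 CPM in cDC1 and 2981 and 3004 CPM in macrophages. *Cd74*, the invariant chain that guides class II, stood at 2352 and 2906 CPM, against 20782 and 19280 CPM in cDC2. *Cd86*, a costimulatory ligand, had 4 and 16 UMIs, and *Cd274*, PD-L1, was lower in both. *H2-DMa* and the processing protease *Ctss* were not called.

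Of 23 secretory pathway genes compared, 4 were higher and 0 lower, beside 14.1% higher and 16.5% lower over all genes. Their median log2 ratios were 0.78 and 0.54, beside 0.19 and 0.18 over all genes. The higher genes were *Sec61b*, of the translocon, at 1090 and 938 CPM, the signal peptidase subunits *Sec11c* at 598 and 484 CPM and *Spcs2* at 505 and 559 CPM, and *Mzb1*. The chaperones *Hsp90b1* and *Hspa5* stood 2.13 and 1.91 times and 1.55 and 1.42 times above the other cells. Genes shared with the B lineage were mostly high. Of 11 compared, 7 were higher and 1, *Ebf1*, lower, with medians of 2.05 and 1.45. *Blnk*, an adaptor of the B cell receptor, stood at 624 and 652 CPM, *Il7r*, the interleukin 7 receptor, at 558 and 546 CPM, and *Fcrla*, an Fc receptor-like protein, at 332 and 267 CPM. *Iglc3*, a lambda light chain constant gene whose reads can be shared with its near copies, had 17 and 37 UMIs, and *Ighm* 32 and 63. The recombinase genes *Rag1* and *Rag2* were at 0.

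**Figure D3:**
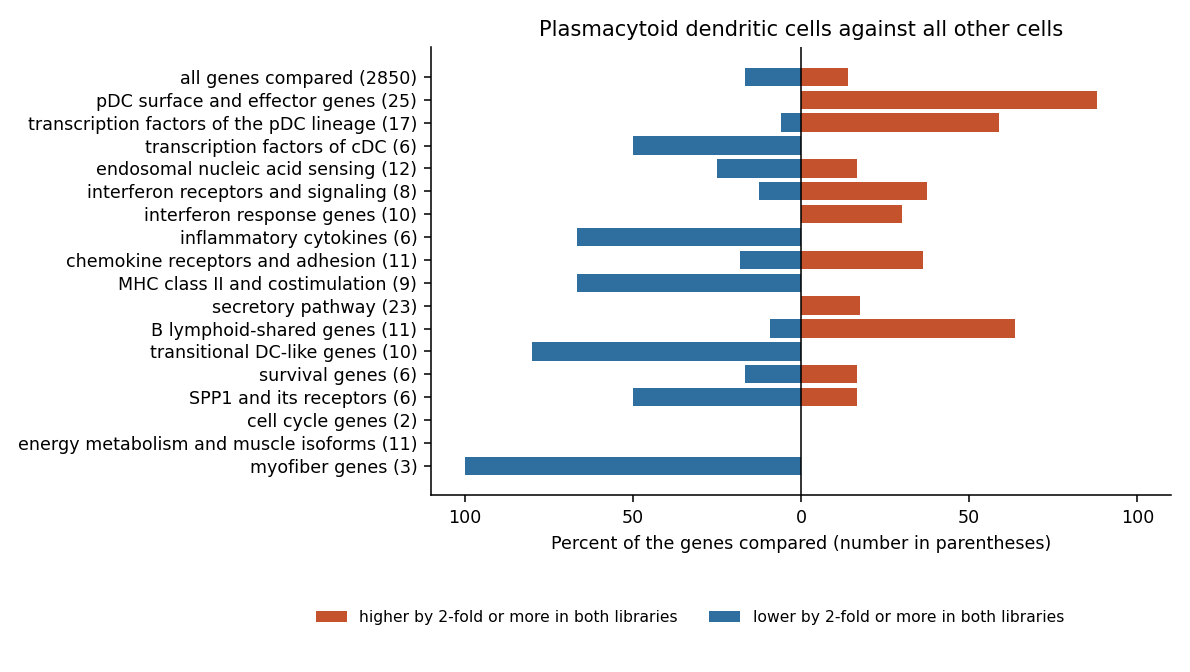
Percent of the compared genes of each list that were higher, to the right, or lower, to the left, by 2-fold or more in pDCs than in all other kept cells in both libraries (number compared in parentheses, top row all genes). The pDC surface genes stood at 22 of 25 higher, and the transitional dendritic cell genes at 8 of 10 lower. The latter count is partly set by the rule, which left out cells with the cDC2 gene *Cd209a*.

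SPP1 was the target of the antibody. *Spp1* had 0 UMIs in the 20 IgG pDCs and 28 in 3 of the 39 SPP1-nAb pDCs, 25 of them in 1 of the cells with high doublet scores. The other cells stood at 533 and 909 CPM. Of 6 genes of SPP1 and its receptors compared, 1 was higher and 3 lower. *Cd44*, a hyaluronan and SPP1 receptor, stood at 385 CPM (258 to 553) and 633 CPM (516 to 769), below the other cells at 662 and 913 CPM, and *Itgb1*, the beta 1 integrin, at 425 and 385 CPM. *Itga4* was the higher gene, and *Itgav*, the alpha V integrin, had 0 UMIs in the IgG pDCs. *Gfp*, the reporter transcript, had 1 and 3 UMIs in the pDCs, 13.3 and 18.6 CPM, against 189 and 252 CPM in the other cells and 271 and 297 CPM in cDC2.

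Of 6 survival genes compared, *Bcl2l11*, the proapoptotic BIM, was higher and *Bcl2a1b* lower. Of 20 cell cycle genes 11 were detected, and 2 had enough UMIs to be compared, neither of them called. Summed over the list, pDCs stood at 452 and 279 CPM and the other cells at 587 and 632 CPM, with 2 UMIs of *Mki67* and 1 of *Top2a* in the 59 pDCs. None of 11 energy metabolism genes compared was called, with medians of 0.14 and -0.09. The 3 myofiber genes compared, *Mylpf*, *Tnnt3* and *Aldoa*, were lower.

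The 59 cells varied among themselves. The sum of *H2-Aa*, *H2-Ab1*, *H2-Eb1* and *Cd74* ran from 0 to 45 UMIs per IgG cell with a median of 10.5, and from 1 to 75 per SPP1-nAb cell with a median of 16. *Ly6c2* and class II RNA were weakly opposed, with exceptions such as the IgG cell with the most *Ly6c2*, 18 UMIs, which had 40 class II UMIs, the second highest of its library. As levels within each cell, Spearman's rho between *Ly6c2* and the class II sum was -0.47 over all 59 cells, -0.36 over the 20 IgG and -0.45 over the 39 SPP1-nAb cells. *Klk1* and the class II sum went together, with rho of 0.46 over all, 0.44 and 0.45. *Siglech* and *Irf8* gave 0.48, 0.44 and 0.46. *Klk1* and *Siglech* are genes of the rule. The 2 IgG and 8 SPP1-nAb pDCs with only 2 supporting genes were low in both *Siglech* and *Irf8*. They stood at 204 and 778 CPM of *Siglech*, against 1742 and 1581 CPM in the pDCs with 3 or more. For *Irf8* it was 102 and 573 CPM, against 1513 and 1127 CPM. Their part in the correlation was not tested. Each set of points shares 1 library, the values of a cell share its depth, and many are at 0 or 1 UMI, so these correlations are descriptions of the cells at hand.

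**Figure D4:**
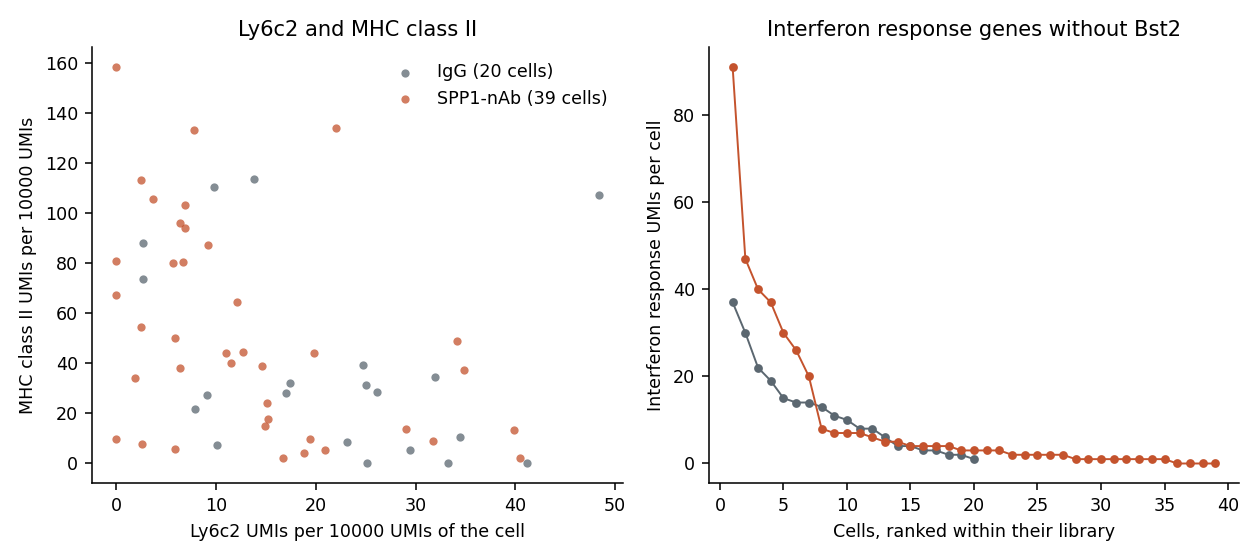
Left, class II UMIs against *Ly6c2* UMIs, both per 10000 UMIs of the cell, for 20 IgG and 39 SPP1-nAb pDCs (1 point per cell). Right, UMIs of the interferon response list without *Bst2* per pDC, ranked within its library. Class II levels spread widely at each level of *Ly6c2*, the IgG cell highest in *Ly6c2* is also among the highest in class II, and the 4 highest cells held 47.8% and 56.3% of the interferon response UMIs, with the SPP1-nAb cells at 91 and 37 UMIs among those of high doublet score.

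The share of pDCs was larger in the SPP1-nAb library. It was 0.0855% of kept cells (exact binomial 95% interval 0.0522 to 0.132) in the IgG and 0.158% (0.112 to 0.215) in the SPP1-nAb library, a ratio of 1.84 (1.06 to 3.30). This interval covers counting error only, and the pDC share of single libraries also moves with sorting and capture. All 11 alternative definitions gave a ratio above 1, but in 8 of them the interval included 1. With the 10% highest doublet scores removed, 20 and 36 pDCs gave 1.70 (0.970 to 3.07), and with every cell thinned to 2000 UMIs, 21 and 37 gave 1.60 (0.923 to 2.85). With no excluding gene the rule gave 46 and 64 cells and a ratio of 1.31 (0.891 to 1.95). Among cells with a UMI of *Ptprc*, the CD45 of blood-derived cells, the shares were 0.144% and 0.222% and the ratio 1.54 (0.889 to 2.77). The SPP1-nAb pDCs were also wider in depth, from 1007 to 9537 UMIs with a median of 4017, against 2897 to 5064 and 3754 in the IgG pDCs, and all 5 cells over 6000 UMIs were SPP1-nAb. Median mitochondrial shares were 2.86% in the SPP1-nAb and 2.33% in the IgG pDCs. What part sorting, capture or depth had in the difference was not tested.

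Between the libraries, 2267 genes had at least 20 UMIs in the pDCs and a UMI in at least 10 of them. By 2-fold or more, 159, or 7.01%, were higher in the SPP1-nAb pDCs and 64, or 2.82%, lower, with a median log2 ratio of 0.00. With no excluding gene in the rule the balance turned round, at 165 higher and 218 lower, and with at least 50 UMIs the counts were 25 and 4. The 39 SPP1-nAb cells could meet this minimum almost alone and the 20 IgG cells less easily, so the 2 counts are not on equal terms. The pDC surface list had 0 of 25 higher and 4 lower, with a median of -0.32, and the pDC transcription factors 0 of 16 either way, with a median of 0.04. Of 7 MHC class II and costimulation genes and 7 interferon response genes compared, 0 were called, with medians of 0.31 and -0.25. Without replicates, such ratios compare 2 pools of cells and not the antibodies.

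Of 1411 genes with at least 30 UMIs, found in at least 15 pDCs and with no cell holding over 20% of the UMIs, the 8 with the largest ratio upward included *Mpp7*, *Capg*, *Akirin1*, *Arid5b*, *Pmepa1*, *Cbx1* and *Ndfip1*, at log2 ratios of 1.67 to 2.55. *Pmepa1*, a membrane protein that restrains TGF-β signaling, had 8 UMIs in 6 of 20 IgG pDCs and 72 in 30 of 39 SPP1-nAb pDCs, a log2 ratio of 2.07 (1.02 to 3.34) and of 2.19 without the 3 cells of high doublet score. In the other cells *Pmepa1* stood at 154 and 143 CPM. *Mpp7*, a scaffold protein, had 4 and 50 UMIs, and *Capg*, an actin-capping protein, 3 and 32. Neither was above the other cells in either library. *Mpp7* stood at 53.1 and 310 CPM in pDCs, against 222 and 311 CPM in the other cells. *Capg* stood at 39.9 and 199 CPM, against 267 and 327 CPM. The IgG side of each of these upward ratios between the libraries rests on 8 UMIs or fewer.

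The 8 genes with the largest ratio downward included *Smim5*, *Trim30d*, *Fgr*, *Hivep3*, *Cmas*, *Usp25* and AC149090.1, at log2 ratios of -2.39 to -1.25. *Smim5*, a small membrane protein of the pDC surface list, had 22 UMIs in 10 of 20 IgG pDCs and 9 in 9 of 39 SPP1-nAb pDCs, a log2 ratio of -2.39 (-3.69 to -1.21), and stood at 1.66 and 1.35 CPM elsewhere. *Klra17*, of the pDC surface list, had nearly equal UMIs, 43 and 42, in pools of 75263 and 161059 UMIs, a ratio of 0.456 (0.291 to 0.715).

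**Figure D5:**
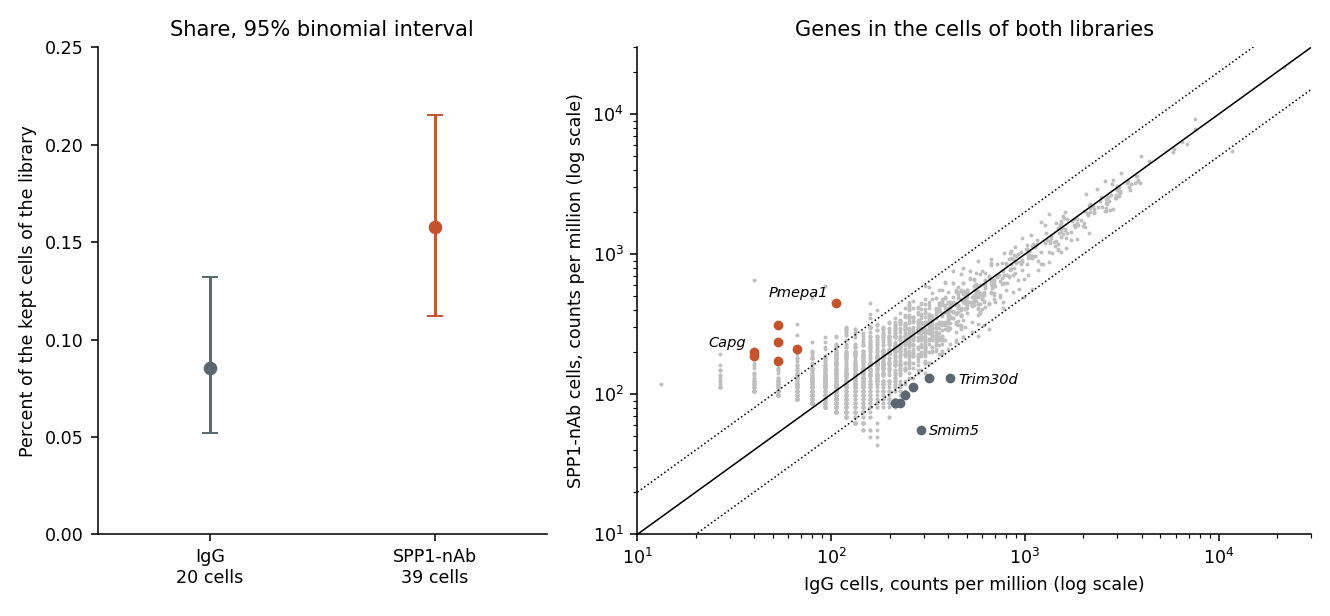
Left, pDC share of the kept cells of each library (y axis: percent; bars: exact binomial 95% intervals). Right, CPM of 2264 genes in SPP1-nAb against IgG pDCs, both axes log scale, with lines at equal levels and at 2-fold, where *Ccl6*, at 0 UMIs in IgG pDCs, could not be drawn and 2 sex-linked genes of the 2267 were left out; 7 genes named in each direction are colored, and most genes lie between the 2-fold lines.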

How the data were processed

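scRNA-Seq of sorted hind limb muscle cells was deposited by the authors as UMI counts per gene and barcode, 1 filtered matrix per library, not normalized. The file header names cellranger 9.0.1 and the submitters' processing notes name Cell Ranger 8.0.0 and GRCm39. Barcodes with more than 200 genes and under 10% mitochondrial UMIs were kept, 48143 of 48848. The matrices carry no cell type names, so pDCs were found by the rule in the report. The members and all gene lists were chosen with earlier results of these data known. Levels are UMIs summed over cells per 1000000 UMIs of the group (CPM). With 1 library per group no test was run. Intervals are exact at 95% (Poisson, binomial or conditional binomial for ratios), and for the ratio of shares a combination of the 2 binomial intervals. A count of 0 is read as up to 3 counts, also in list medians. Doublets were scored with scrublet in scanpy 1.11.5 and kept, and an alternative left out the top-scoring 10% of each library.

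Reference groups were gated on *Xcr1* (cDC1), *Cd209a* (cDC2), *C1qa* (macrophages) or at least 3 T or NK cell genes. The first 3 needed at least 2 further genes of the type, and all groups lacked *Siglech* and the defining genes of the others. *Irf8* was among the further genes of cDC1 and *Cd7* and *Clec10a* among those of cDC2. Genes named are those of the rule, in each list 2 to 4 with the most UMIs or the largest ratio to other cells, the 20 with the largest ratio in both libraries among genes in at least 25% of pDCs, and the 8 per direction between libraries. Mitochondrial, ribosomal, hemoglobin, immunoglobulin and sex-linked genes were left out of the last 2 sets. A few others were named after their values were seen, to complete the called genes of a list or to give genes at 0. Of 451 list entries, 448 matched a feature, and 31674 of 32287 feature IDs were in GENCODE M39. Alternatives covered the filters, the rule, thinning to 2000 UMIs, doublets and the minimum UMIs. Some genes that these rules select are not reported here. The comparison code was tested on simulated data. Python 3.11.15, numpy 2.4.6, scipy 1.17.1, pandas 2.3.3 and matplotlib 3.10.9 were used.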

Additional observations from a re-analysis of the deposited data

How the results depend on the processing

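No paired analysis was possible because each group has 1 library, and leaving out a replicate was not possible for the same reason. The ratio of pDC shares ran from 1.31 to 1.85 over 11 alternatives, and in 8 of them its interval included 1. The share itself rose to 0.137% in the IgG library with 1 supporting gene enough, to 0.197% and 0.259% in the IgG and SPP1-nAb libraries with no excluding gene, and to 0.144% and 0.222% among *Ptprc*-bearing cells. Genes called against the other cells ran from 239 to 506 higher and 229 to 600 lower, and the 239 and 229 were those of cells thinned to 2000 UMIs. Counts between the libraries depended most on the settings. Genes higher and lower in SPP1-nAb pDCs, 159 and 64 as reported, were 72 and 38 after thinning, 25 and 4 with at least 50 UMIs, 515 and 276 with at least 10 UMIs in any number of cells, and 393 and 264 at 1.5-fold. Without the cell holding the most UMIs of each gene 277 were higher. The lower genes numbered 109 with 1 supporting gene enough. With no excluding gene 165 were higher and 218 lower, so the balance between higher and lower genes turned round, and the cause was not tested. The share ratio stayed above 1 in each alternative. Leaving out cells over 6000 UMIs, leaving out shared barcodes, and removing doublets together with a minimum of 50 UMIs, which gave 15 and 10, were chosen after seeing the data. With 75263 and 161059 UMIs in the pDCs, levels up to about 39.9 CPM in the first and 18.6 CPM in the second pool could not be told from 0.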

Other observations

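The cells kept out by the excluding genes were split by gene. Of the 26 IgG and 25 SPP1-nAb cells with *Siglech* and at least 2 supporting genes that were left out, 14 and 6 carried *C1qa*, 18 and 19 carried *Cd209a*, and none carried *Xcr1*, and a cell can carry more than 1 of them. They held 89 and 105 UMIs of *Siglech* and 9 and 4 of *Spib*, beside 349 and 268 of *Lyz2*. *Lyz2* was found in 14 of the 26 and 11 of the 25 cells, and 98 of the 268 UMIs lay in 1 cell. Only 1 IgG and 0 SPP1-nAb cells without *Siglech* had 4 or more supporting genes and no excluding gene.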
